A study of Homo sapiens with 20 samples.

Results

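The E2F transcription factors and the pocket proteins of the RB family were followed in RNA-seq libraries of U2-OS cells, a human osteosarcoma line. The 10 genes were taken by name as members of these families, with no threshold on a measured value. They were E2F1, E2F2 and E2F3, E2F4 and E2F5, E2F7 and E2F8, and the pocket protein genes RB1, RBL1 and RBL2. All 10 were among the 20314 genes of the count table and passed the filter on low counts. There were 20 libraries in 4 groups of 5, all from cells grown in DMEM with FCS. Untreated cells had no irradiation. The irradiated groups had received 20 Gy and were harvested 90 min or 7 days later (post-IR). Cells of the last group carried an shRNA against NFKBIA and were not irradiated. The methods describe puromycin-selected lentiviral shRNA lines with doxycycline induction and scrambled controls. The labels of the knockdown libraries name neither vector nor doxycycline, and a scrambled control library was not analysed here. NFKBIA itself had 31.3 ± 7.25 CPM (counts scaled to a common library size, mean ± SD, n = 5) in untreated cells and 12.1 ± 0.67 CPM in the knockdown, with no overlap between the groups. The study calls the untreated, 90 min and 7 days libraries biological replicates and describes RNA preparation in sets of 5. How the replicate cultures were kept apart is not given, nor is the kind of replicate for the knockdown, so that p values measure the spread between these libraries.

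As background, activator E2Fs (E2F1, E2F2 and E2F3) bind promoters of DNA replication and cell cycle genes together with a DP partner and drive entry into S phase. Pocket proteins bind E2Fs and silence these promoters. Phosphorylation of the pocket proteins by cyclin D and cyclin E kinases releases the E2Fs, and CDK inhibitors such as p21 oppose these kinases. E2F4 and E2F5 act mainly as repressors with p130 (RBL2) and p107 (RBL1), also within the DREAM complex, whose MuvB core silences cell cycle genes in resting cells. E2F7 and E2F8 are atypical factors that repress without DP partners or pocket proteins. Several E2F and pocket protein genes are themselves E2F targets.

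Total counts on genes lay between 22535659 and 40390961 per library, and the smallest count of any member in any library was 116. Untreated replicates 4 and 5 stood apart from the other untreated libraries on principal components 3 and 4, which held 8.68% and 4.74% of the variance. They also held opposite extremes for several members. Replicate 5 had the highest untreated levels of E2F7, E2F8, RB1 and RBL1 and the lowest of E2F1 and E2F5, and replicate 4 had the reverse order at each of these genes. Replicate 5 also had the lowest depth of all libraries. Counts of members and listed genes against untreated cells are therefore also given without these replicates, a choice made after seeing the data. The labels give a lane for each library. The other 4 untreated replicates filled lane 2, and a fit with lane as a factor therefore rests on untreated replicate 5 wherever untreated cells are compared. Of the osteoblast and mesenchymal markers, RUNX2, SPARC, COL1A1 and VIM were at 67.6 CPM or more in every library, whereas SP7 and COL1A2 stayed under 0.6 CPM. BGLAP was low, at 0.658 to 1.71 CPM, and ALPL ranged from 5.80 to 55.1 CPM. KRT8 and KRT18 were also detected, at 189 CPM or more, with EPCAM and CDH1 at 4.45 CPM or less.

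The promoter sequences are shown because 4 members fell together at 7 days, and 3 of these have an entry in the RefSeq promoter table (GRCh38.p14). Each entry runs from 250 bases before to 50 bases after a transcript start. It covered 8 of the 10 members, and E2F5 and E2F8 had none. An E2F motif was searched on both strands as TTTCCCGC, TTTCGCGC, TTTGCCGC or TTTGGCGC, and the CHR element, the site read by the MuvB core, as TTTGAA or TTCGAA. These letters do not overlap between the motifs as found here. Of 35116 promoters in the table, 3.31% held the E2F motif and 16.4% the CHR letters. Capitals mark the matches in 5 promoters, each written 5′ to 3′ on the strand of the gene. The first 3 belong to members that fell at 7 days, and E2F3 and E2F7 are set beside them as members that did not.
E2F1: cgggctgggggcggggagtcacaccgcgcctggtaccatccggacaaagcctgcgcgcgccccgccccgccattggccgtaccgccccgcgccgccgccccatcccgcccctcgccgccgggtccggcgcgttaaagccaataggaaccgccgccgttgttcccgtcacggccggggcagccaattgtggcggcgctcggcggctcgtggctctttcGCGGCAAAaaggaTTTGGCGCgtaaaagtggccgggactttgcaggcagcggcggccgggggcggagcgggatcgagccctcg
E2F2: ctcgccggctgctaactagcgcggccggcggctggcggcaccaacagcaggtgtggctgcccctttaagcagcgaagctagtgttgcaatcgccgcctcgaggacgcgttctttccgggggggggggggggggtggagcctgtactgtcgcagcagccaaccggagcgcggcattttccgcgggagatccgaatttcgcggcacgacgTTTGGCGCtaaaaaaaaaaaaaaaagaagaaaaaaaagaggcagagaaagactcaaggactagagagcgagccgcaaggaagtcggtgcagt
RBL1: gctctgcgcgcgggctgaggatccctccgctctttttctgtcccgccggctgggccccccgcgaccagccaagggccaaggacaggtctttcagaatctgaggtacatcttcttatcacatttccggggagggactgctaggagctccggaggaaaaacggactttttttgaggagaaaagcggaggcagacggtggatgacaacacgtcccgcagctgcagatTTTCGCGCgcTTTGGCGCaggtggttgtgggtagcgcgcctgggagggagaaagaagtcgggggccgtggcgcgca
E2F3: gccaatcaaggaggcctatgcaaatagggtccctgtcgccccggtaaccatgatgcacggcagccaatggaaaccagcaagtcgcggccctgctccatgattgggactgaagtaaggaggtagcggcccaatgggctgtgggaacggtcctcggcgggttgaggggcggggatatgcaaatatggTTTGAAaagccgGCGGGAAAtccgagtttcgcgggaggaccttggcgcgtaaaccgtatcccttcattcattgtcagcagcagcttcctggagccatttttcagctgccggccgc
E2F7: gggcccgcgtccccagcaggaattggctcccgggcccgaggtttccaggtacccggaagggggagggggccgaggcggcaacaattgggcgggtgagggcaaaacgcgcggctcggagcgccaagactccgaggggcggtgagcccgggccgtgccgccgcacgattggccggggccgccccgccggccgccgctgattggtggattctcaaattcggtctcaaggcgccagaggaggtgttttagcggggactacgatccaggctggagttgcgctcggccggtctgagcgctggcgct
The E2F1 promoter, at chr20:33686336-33686635 on the minus strand, had 2 E2F motifs, from base -33 to -26 and from base -20 to -13 of the start, on opposite strands. In the E2F2 promoter, at chr1:23531184-23531483 on the minus strand, 1 motif lay from base -42 to -35. RBL1, at chr20:37095948-37096247 on the minus strand, had 2 motifs, from base -26 to -19 and from base -16 to -9. E2F3 has 2 starts in the table. The upstream one, at chr6:20401629-20401928 on the plus strand, held an E2F motif from base -53 to -46 and CHR letters from base -65 to -60, and the other held neither. The E2F7 promoter, at chr12:77065520-77065819 on the minus strand, and the E2F4 promoter held neither. For RBL2 the table starts lay 494 and 1642 bases inside the gene as annotated by GENCODE 29, and the first held CHR letters after its start. The RB1 entry lay 172724 bases inside the gene and was not used further. The motif was thus present in members that fell and in E2F3, which did not, and its absence says only that these letters are not in the window.

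At 7 days post-IR, E2F1, E2F2, E2F8 and RBL1 were lower than in untreated cells, and no member was higher. E2F3, from the same subfamily as E2F1, was above all untreated libraries, by less than the threshold used here. E2F7, from the same subfamily as E2F8, had a higher mean than in untreated cells, also by less than the threshold, but overlapped with the untreated libraries. A gene was called higher or lower where its log2 fold change exceeded 0.5 in size and its adjusted p was under 0.05 by the quasi-likelihood test of edgeR, adjusted after Benjamini and Hochberg over 14992 genes. By this rule 4 of 10 members were lower, where 14.4% of all genes were lower, 16.7% higher and 31.1% called in either direction. At an adjusted p under 0.05 with no threshold on size 7 of 10 members passed, against 64.2% of all genes. Without untreated replicates 4 and 5 the count stayed 4, where 29.9% of all genes were called. Of 4 epithelial markers 3 were also lower at 7 days, and their summed level was 628 to 1108 CPM in untreated libraries and 658 to 690 CPM at 7 days. Of 7 osteoblast and mesenchymal markers tested, SPARC was lower and ALPL higher, and the summed level of all 8 was 5956 to 7726 CPM in untreated libraries and 4824 to 5344 CPM at 7 days, with no overlap. The part of these markers in the results was not tested. In bulk RNA, fewer cells that express a gene and less RNA per cell cannot be told apart.

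E2F2 had the largest change of the members in the fit of all libraries, whereas with lane as a factor E2F2 was at -1.35 and E2F8, at -1.81, changed more. Untreated libraries held 29.8, 34.0, 30.5, 28.5 and 27.4 CPM of E2F2. At 7 days the values were 10.1, 11.7, 11.4, 10.1 and 10.1 CPM. Every 7 days library was well below every untreated one, at 0.355 of the untreated level. Its log2 fold change was -1.49 ± 0.069 (SE; edgeR adjusted p = 1.00e-13), and with each library left out in turn it stayed between -1.55 and -1.45.

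E2F1, the activator best known for driving S-phase entry and, when in excess, apoptosis, was at 53.1, 50.9, 52.5, 64.5 and 39.5 CPM in untreated cells. It was at 27.2, 28.7, 26.5, 27.1 and 27.6 CPM at 7 days. The 7 days libraries were close to each other and all under the lowest untreated library, replicate 5. The log2 fold change was -0.93 ± 0.084 (SE; edgeR adjusted p = 4.81e-09). With lane as a factor it was -0.49 (edgeR adjusted p = 0.0125), just short of the threshold on the fold change.

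E2F3, the third activator, is transcribed from more than 1 start, and counts per gene do not separate its forms. Its untreated libraries held 39.4, 39.0, 40.4, 35.7 and 33.0 CPM. Those at 7 days held 45.2, 43.7, 46.0, 47.1 and 47.0 CPM. The groups did not overlap, with the 7 days libraries on top. A log2 fold change of 0.29 ± 0.049 (SE; edgeR adjusted p = 3.60e-05) did not reach the threshold on size.

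E2F8, an atypical repressor, had 14.9, 16.0, 14.8, 12.1 and 23.6 CPM in untreated libraries. At 7 days E2F8 had 6.20, 7.36, 6.92, 7.40 and 6.73 CPM. Replicate 5 was the highest untreated library by a wide margin, and the 7 days libraries were below all untreated ones with or without it. The log2 fold change was -1.22 ± 0.12 (SE; edgeR adjusted p = 1.87e-08), and -1.16 without untreated replicates 4 and 5.

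Its paralog E2F7, which p53 is known to induce, was at 99.9, 109, 111, 77.1 and 145 CPM in untreated cells. It was at 134, 122, 131, 127 and 135 CPM at 7 days. Untreated replicate 5 lay above every 7 days library and the other 4 untreated libraries below all of them. The log2 fold change was 0.26 ± 0.10 (SE; edgeR adjusted p = 0.0278). With each library left out in turn it ran from 0.14 to 0.37. It was 0.26 without both untreated replicates 4 and 5, the lowest and the highest untreated library. With lane as a factor it turned to -0.23 (edgeR adjusted p = 0.297).

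Of the pocket protein genes, RBL1, which encodes p107 and is itself a known E2F target, was the one that fell. Its untreated libraries had 46.3, 54.7, 49.5, 37.6 and 55.8 CPM. At 7 days RBL1 was at 29.5, 30.2, 28.8, 29.9 and 30.6 CPM. All 7 days libraries lay below the lowest untreated library, which was replicate 4. Its log2 fold change was -0.71 ± 0.076 (SE; edgeR adjusted p = 6.18e-08). RB1, the retinoblastoma gene, had 68.4 ± 12.8 CPM in untreated cells and 64.5 ± 2.06 CPM at 7 days (n = 5), with a log2 fold change of -0.08 ± 0.087 (SE; edgeR adjusted p = 0.417). RBL2, which encodes p130, had 98.2 ± 12.0 and 102 ± 2.35 CPM and a log2 fold change of 0.05 ± 0.066 (SE; edgeR adjusted p = 0.502). For both genes the groups overlapped, and the 95% interval of the log2 fold change ran from -0.25 to 0.09 for RB1 and from -0.08 to 0.18 for RBL2.

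The pocket-protein-dependent repressors showed smaller differences at 7 days. E2F4, a main partner of p130 in resting cells, had 81.9 ± 2.09 CPM without treatment and 71.5 ± 1.69 CPM at 7 days, with no overlap (log2 fold change -0.20 ± 0.04, SE; edgeR adjusted p = 0.000268). E2F5 was at 9.19 ± 2.39 and 10.3 ± 0.562 CPM, with overlap (log2 fold change 0.15 ± 0.12, SE; edgeR adjusted p = 0.274). E2F5 was, with lane as a factor, called higher at 0.94 (edgeR adjusted p = 0.000901), so that this fit also called 4 members, E2F5 in place of E2F1, where it called 41.3% of all genes. In all, 6 of 10 members had no overlap between the groups, where 44.8% of all genes had none. The plot of CPM by library shows all values.

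**Figure D1:**
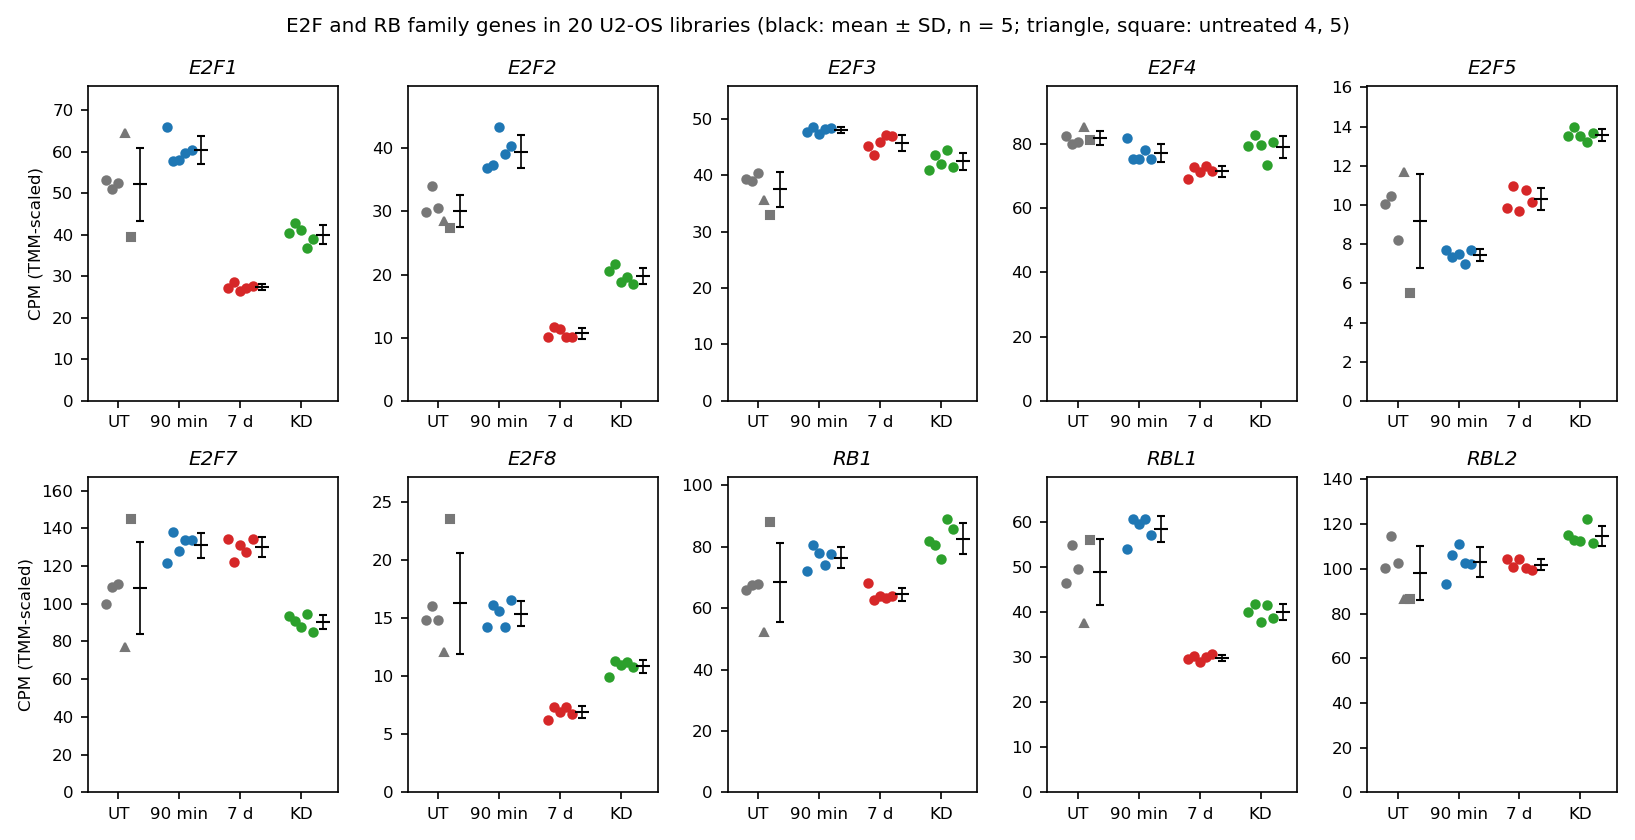
CPM of the 10 genes in each library (y axis, linear from 0; points: libraries of untreated cells, UT, of 90 min and 7 days post-IR and of the NFKBIA knockdown, KD; black: mean ± SD, n = 5; triangle and square: untreated replicates 4 and 5). E2F1, E2F2, E2F8 and RBL1 were lowest at 7 days, from 10.7 CPM on average for E2F2 against 30.0 CPM in untreated cells, whereas E2F7 had similar levels at 90 min and at 7 days.

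At 90 min post-IR the family had changed little. No member was called in edgeR, where 2.08% of all genes were higher, 1.57% lower and 3.66% called in either direction. At an adjusted p under 0.05 with no threshold on size 3 of 10 members passed, against 21.3% of all genes. At an unadjusted p under 0.05, 7 members passed, against 33.4% of all genes, and DESeq2 in place of edgeR also called 0. Without untreated replicates 4 and 5 no member was called in edgeR either, where 2.9% of all genes were, with E2F2 at 0.32 and E2F3 at 0.27. For 2 of 10 members, E2F2 and E2F3, the groups did not overlap, against 12.3% of all genes.

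Both of these activators had higher values than in untreated cells at every 90 min library. E2F2 was at 36.9, 37.4, 43.3, 39.0 and 40.4 CPM (log2 fold change 0.39 ± 0.065, SE; edgeR adjusted p = 0.000183). E2F3 was at 47.6, 48.5, 47.3, 48.2 and 48.3 CPM (log2 fold change 0.35 ± 0.049, SE; edgeR adjusted p = 2.43e-05). The spread among the 90 min libraries of E2F3 was the smallest of any member in any group, at 1.11% of the mean. RBL1 passed on p but not on size, with 54.0, 60.7, 59.4, 60.7 and 57.1 CPM (log2 fold change 0.26 ± 0.075, SE; edgeR adjusted p = 0.0179), and overlapped with untreated replicates 2 and 5.

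Among the other members, E2F1 was at 60.3 ± 3.32 CPM, E2F4 at 77.1 ± 2.85 CPM (log2 fold change -0.09 ± 0.04, SE), E2F7 at 131 ± 6.51 CPM, E2F8 at 15.4 ± 1.08 CPM and RB1 at 76.5 ± 3.31 CPM at 90 min. E2F5 was at 7.45 ± 0.291 CPM (log2 fold change -0.31 ± 0.12, SE; edgeR adjusted p = 0.0656), within the range of the untreated libraries, and RBL2 at 103 ± 6.66 CPM (0.07 ± 0.066). Adjusted p values of the 7 members that were not under 0.05 ran from 0.0562 for E2F7 to 0.709 for E2F8 in edgeR. With lane as a factor 4 members were called at 90 min, namely E2F1 at 0.62, E2F2 at 0.52, E2F3 at 0.54 and E2F8 at -0.62, in a fit that sets these libraries against untreated replicate 5 and called 25.5% of all genes. E2F5 turned to 0.44 in that fit. Within lane 3, which holds this library and 3 of the 90 min libraries, the same 4 members and 24.9% of all genes were called, and the single untreated library is assumed to vary like the others.

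Between the irradiated groups, 4 of 10 members were lower at 7 days than at 90 min. Of all genes, 12.6% were lower, 16.8% higher and 29.3% called in either direction. The fold changes here compare only irradiated libraries. The SE, intervals and p values also rest on the untreated and knockdown libraries, because the spread was estimated over all libraries together. At an adjusted p under 0.05 alone 7 of 10 passed, against 60.9% of all genes. The lower members were E2F1, E2F2, E2F8 and RBL1 again, and this comparison shares the 7 days libraries with the one above. The log2 fold change was -1.88 ± 0.069 for E2F2 (SE; edgeR adjusted p = 3.85e-15). For E2F8 it was -1.15 ± 0.12, for E2F1 -1.14 ± 0.084 and for RBL1 -0.97 ± 0.076. For E2F1, E2F2, E2F8 and RBL1 the call held in each of 19 alternative fits that kept the threshold on the fold change, the lane factor included, and in lane 4 alone E2F2 was at -1.89. E2F5, a repressor with few transcripts, passed on p but not on size at 0.46 ± 0.12 (SE; edgeR adjusted p = 0.00195). RB1, at -0.25 ± 0.087, and E2F4, at -0.11 ± 0.04, also passed on p alone. E2F3 was at -0.07 ± 0.049 and RBL2 at -0.02 ± 0.066, neither passing on p. For E2F7 the 2 groups overlapped and the log2 fold change was -0.01 ± 0.10 (SE; edgeR adjusted p = 0.926; 95% interval -0.21 to 0.18). No overlap was seen for 8 of 10 members, against 61.8% of all genes. Of the 4 epithelial markers 3 were lower at 7 days than at 90 min, at a median log2 fold change of -0.68 over the list, and their summed level was 746 to 905 CPM at 90 min, above every 7 days library. Of 7 osteoblast and mesenchymal markers ALPL was higher and SPARC lower, and the sum over all 8 was 5726 to 6004 CPM at 90 min, again above every 7 days library. What these markers contribute was not tested.

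NFKBIA encodes IκBα, the inhibitor that holds NF-κB in the cytoplasm, so that its knockdown asks what changes without irradiation. In the knockdown, E2F2 and E2F8 were lower than in untreated cells and E2F5 was higher. These were 1 of 10 members higher and 2 of 10 lower, where 5.18% of all genes were higher, 7.53% lower and 12.7% called in either direction. At an adjusted p under 0.05 alone 9 of 10 passed, against 40.5% of all genes. Of 4 epithelial markers 2 were also lower, at a summed 634 to 705 CPM. Of 7 osteoblast and mesenchymal markers 2 were lower, COL1A1 at -1.68 and ALPL, and the sum over all 8 was 4924 to 5237 CPM, below every untreated library. Their part was not tested. The count fell to 2 without untreated replicates 4 and 5, where 11.7% of all genes were called, and to 1 without replicate 5, which left E2F2, where 11.9% were. With lane as a factor it was 3, namely E2F5, E2F7 at -0.72 and E2F8 at -1.31, where this fit called 27.3% of all genes.

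E2F2 was at 20.5, 21.6, 18.9, 19.6 and 18.6 CPM in the knockdown. All of these lay between the untreated and the 7 days libraries. Its log2 fold change was -0.60 ± 0.066 (SE; edgeR adjusted p = 3.93e-07), -0.68 without untreated replicates 4 and 5 and -0.40 with lane as a factor (edgeR adjusted p = 0.148).

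The knockdown libraries held 9.95, 11.3, 11.0, 11.2 and 10.8 CPM of E2F8. They also fell between the untreated and the 7 days libraries. Its log2 fold change of -0.58 ± 0.12 (SE; edgeR adjusted p = 0.000548) was -0.43 without untreated replicate 5, short of the threshold on size.

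For E2F5 the 5 knockdown libraries had 13.5, 14.0, 13.5, 13.2 and 13.7 CPM. Untreated libraries had 10.1, 10.5, 8.23, 11.7 and 5.52 CPM of this gene. The knockdown libraries agreed closely and were above all others in the data. This gave a log2 fold change of 0.55 ± 0.12 (SE; edgeR adjusted p = 0.000761). It was 0.41 without untreated replicate 5, the lowest library, and 1.35 with lane as a factor. In the GENCODE 29 annotation E2F5 overlaps C8orf59, a gene on the other strand with 1494 to 3178 counts per library, and the strand setting of the counting is not given in the sources used here.

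Of the 7 members not called in the knockdown, 6 passed on p alone in edgeR. E2F1 had 40.4, 42.8, 41.1, 36.9 and 39.0 CPM, with a log2 fold change of -0.38 ± 0.083 (SE; edgeR adjusted p = 0.000961), and overlapped with untreated replicate 5. RBL1 was at 40.0 ± 1.72 CPM (log2 fold change -0.29 ± 0.076, SE), RB1 at 82.7 ± 5.06 CPM (0.28 ± 0.087), RBL2 at 115 ± 4.47 CPM (0.23 ± 0.066), E2F7 at 90.3 ± 3.95 CPM (-0.26 ± 0.10) and E2F3 at 42.4 ± 1.47 CPM (0.18 ± 0.05). Without untreated replicates 4 and 5, E2F3 was at 0.083 and RBL2 at 0.10, and neither passed on p (edgeR adjusted p = 0.0712 and 0.0965). E2F4 was at 79.1 ± 3.44 CPM (-0.05 ± 0.04; edgeR adjusted p = 0.343). No overlap was seen for 4 of 10 members, against 24.1% of all genes.

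The 7 days group and the knockdown can also be compared with each other directly. At 7 days E2F1, E2F2 and E2F8 were lower than in the knockdown and E2F7 was higher, that is 3 of 10 lower and 1 of 10 higher, where 9.89% of all genes were lower, 15.8% higher and 25.7% called in either direction. At an adjusted p under 0.05 alone 9 of 10 passed, against 57.4% of all genes. E2F2 was at 0.539 of the knockdown level (log2 fold change -0.89 ± 0.069, SE; edgeR adjusted p = 5.38e-10), E2F8 at 0.638 (-0.65 ± 0.12) and E2F1 at 0.685 (-0.55 ± 0.084). E2F7 had 93.4, 90.8, 87.4, 94.6 and 85.3 CPM in the knockdown, all under its 7 days libraries. The log2 fold change of E2F7 was 0.52 ± 0.10 (SE; edgeR adjusted p = 0.00015) and fell under the threshold on size, to between 0.48 and 0.50, in 5 fits, those with lane as a factor, within lane 5, and without knockdown replicates 3 or 5 or 7 days replicate 1. Lane 5 holds 3 libraries of 7 days and 1 of the knockdown, so that the fit within it assumes that this single library varies like those of 7 days. RBL1 passed on p alone at -0.42 ± 0.076, as did E2F5 at -0.40 ± 0.12, RB1 at -0.36 ± 0.087, RBL2 at -0.17 ± 0.066 and E2F4 at -0.15 ± 0.04. E2F3 was at 0.11 ± 0.049 (SE; edgeR adjusted p = 0.0639). No overlap was seen for 9 of 10 members, against 60.7% of all genes. Between these groups 1 of 4 epithelial markers was higher at 7 days and 1 lower, and of 7 osteoblast and mesenchymal markers 3 were higher and 1 lower. The summed levels of both lists overlapped, and the part of these markers was likewise not tested. The plot of fold changes sets the 5 comparisons side by side, and those with a shared group are not independent.

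**Figure D2:**
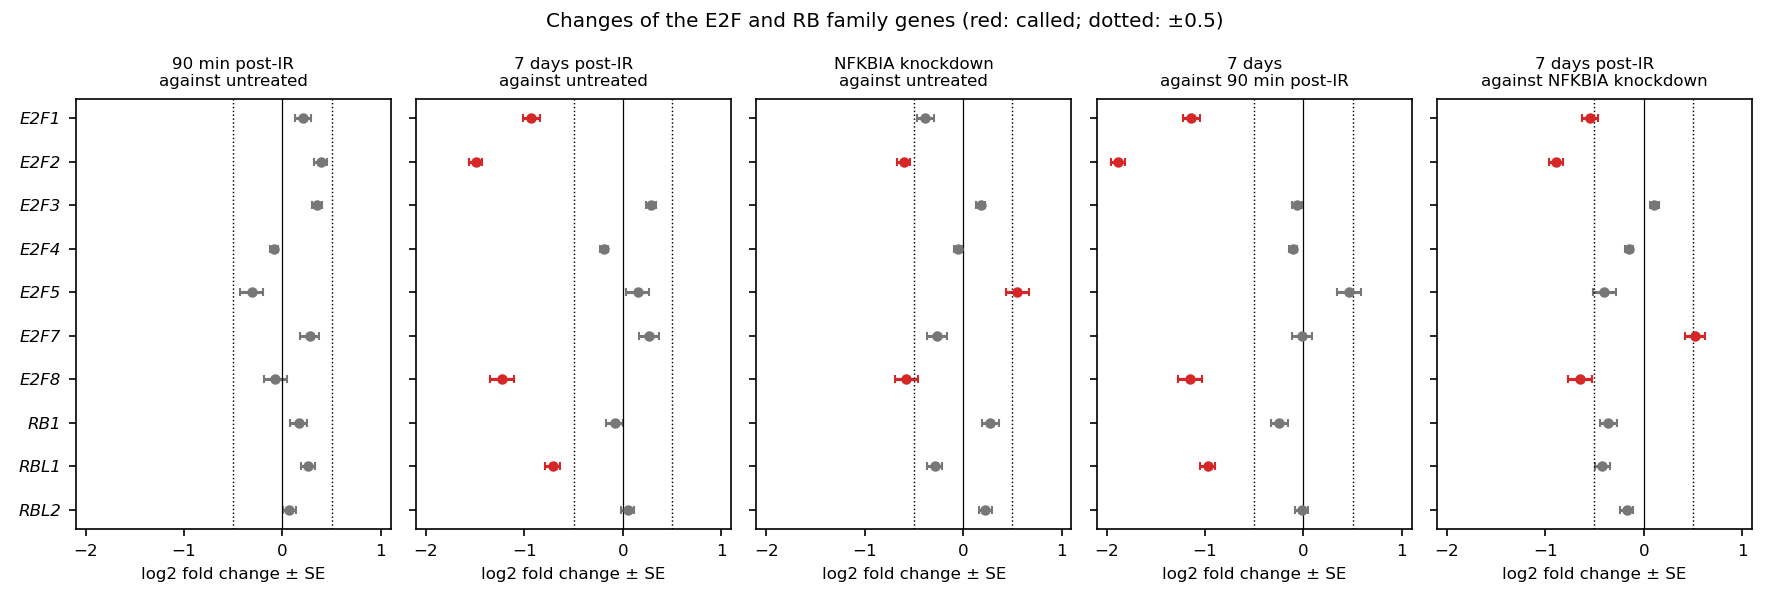
Log2 fold change ± SE (x axis, edgeR) of each gene in 5 comparisons; red marks genes called by both thresholds and dotted lines mark 0.5 in size. No gene is red at 90 min, and E2F2, at -1.49 against untreated cells and -1.88 against 90 min, lies farthest to the left.

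The makeup of the family can be compared between genes only per length. For this, CPM were divided by the gene length in kb as deposited, and each gene is given as a percentage of the sum over the 7 E2F genes. In untreated cells E2F4 held 28.7% ± 0.856, E2F1 26.1% ± 4.53 and E2F7 21.6% ± 4.81 (SD, n = 5), and these shares of E2F1 and E2F7 overlapped between libraries. E2F3 held 9.85%, E2F2 6.91%, E2F8 4.93% and E2F5 1.95%. At 7 days E2F7 held 31.0% ± 1.21 and E2F4 30.0% ± 0.661, which overlapped, and E2F1 had 16.5% ± 0.528 and E2F3 14.4% ± 0.358. E2F2 and E2F8 held 2.94% and 2.51%. The order of the 3 activators, E2F1 over E2F3 over E2F2, was the same in every group on average.

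The activators together held 42.9% ± 5.05 in untreated cells, 46.7% ± 0.901 at 90 min, 33.9% ± 0.332 at 7 days and 40.8% ± 0.473 in the knockdown. The share at 7 days, with a highest library of 34.4%, was below every untreated library, of which replicate 5 was the lowest at 34.6%. E2F7 and E2F8 together held 26.5% ± 6.06 in untreated cells and 33.5% ± 1.04 at 7 days, and their ranges overlapped. The ratio of E2F7 to E2F8 per length was 4.40 ± 0.326 in untreated cells, 5.61 ± 0.344 at 90 min, 12.4 ± 1.36 at 7 days and 5.48 ± 0.413 in the knockdown. This ratio varied little between untreated replicates, from 4.04 to 4.90, although both genes were extreme in replicates 4 and 5. E2F3 over E2F2 was 1.43 ± 0.0873 in untreated cells, 4.93 ± 0.474 at 7 days and 2.45 ± 0.149 in the knockdown.

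Of the 3 pocket protein genes RBL2 held the largest share per length in every group on average, from 38.1% at 90 min to 46.7% at 7 days. RBL1 held 25.3% ± 1.08 in untreated cells, 27.3% ± 0.676 at 90 min, 17.3% ± 0.612 at 7 days and 19.0% ± 0.599 in the knockdown. The last 2 groups did not overlap with the first 2. RBL2 over RBL1 was 1.61 ± 0.228 in untreated cells, 2.71 ± 0.122 at 7 days and 2.27 ± 0.0804 in the knockdown. GENCODE 29 places RCBTB2, with 101 to 384 counts per library, within or beside RB1 on the other strand, and AKTIP, with 248 to 1037 counts, likewise for RBL2. It also lists the processed pseudogenes E2F3P1, E2F3P2 and E2F4P1, whose near copies can take reads of their parent genes.

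**Figure D3:**
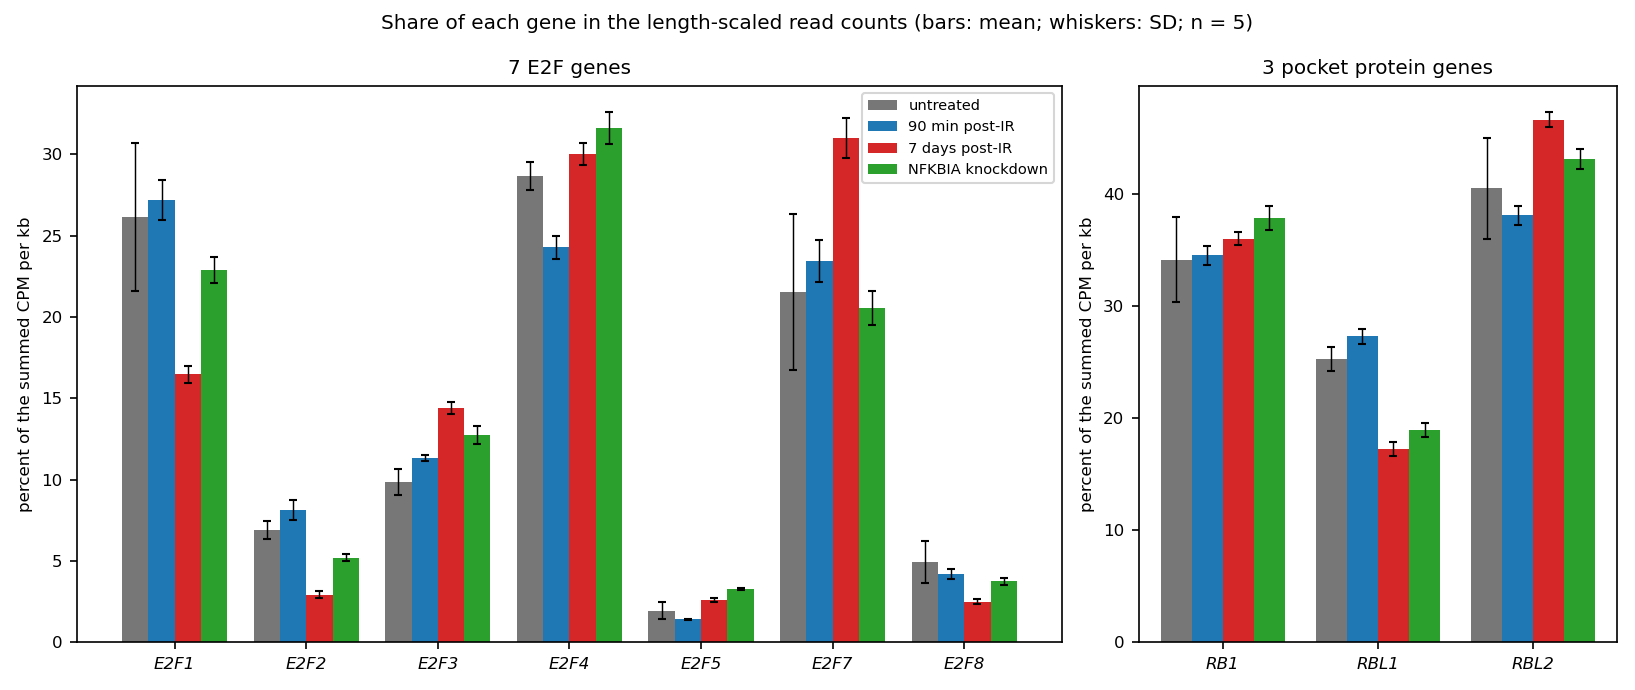
Share of each gene in the summed CPM per kb (y axis, percent, from 0) of the 7 E2F genes and of the 3 pocket protein genes; bars are means and whiskers SD (n = 5) of untreated cells, 90 min post-IR, 7 days post-IR and NFKBIA knockdown. E2F7 had 31.0% at 7 days against 21.6% in untreated cells, and RBL1 17.3% against 25.3%.

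Target genes of the family were taken as a list of 41 genes that E2Fs are known to control, mostly of DNA replication, nucleotide synthesis and repair, with some of the cell cycle, chromatin and apoptosis, of which 40 were tested. At 7 days 27 of 40 were lower and 0 higher, or 67.5% where 14.4% of all genes were lower, and at adjusted p alone 1 was higher. The median log2 fold change was -0.70, against 0.01 over all genes. Without untreated replicates 4 and 5 there were 28 calls, and with lane as a factor 20, in a fit that called 41.3% of all genes. The 3 largest changes were those of TP73, which encodes p73, at -1.60 ± 0.13, GINS2, a subunit of the replicative helicase, at -1.31 ± 0.093, and CCNA2, cyclin A2, at -1.18 ± 0.046 (SE). CCNA2 went from 113 ± 6.16 to 49.7 ± 2.22 CPM and GINS2 from 103 ± 20.6 to 41.6 ± 1.85 CPM. Their untreated and 7 days libraries did not overlap.

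At 90 min 1 of 40 target genes was higher, CDC25A, a phosphatase that activates CDKs, from 36.4 ± 1.25 to 56.0 ± 3.90 CPM (log2 fold change 0.62 ± 0.051, SE; edgeR adjusted p = 1.96e-08). In the same comparison 2.08% of all genes were higher, the list median was 0.07, 1 target was called without untreated replicates 4 and 5, 3 without untreated replicate 1 or 4 alone, and 12 with lane as a factor, in a fit that called 25.5% of all genes. In the knockdown 3 of 40 were lower, or 7.5%, where 7.53% of all genes were lower. These were TK1, thymidine kinase, at -0.82 ± 0.11, TP73 at -0.79 ± 0.13 and CHAF1B, a histone chaperone subunit, at -0.56 ± 0.098 (SE). CHAF1B was at -0.44 without untreated replicate 5 and TK1 at -0.23 with lane as a factor, neither then called. The list median was -0.28 in the knockdown, 37 of 40 values were below 0, and 30 passed on p without a threshold on size, where 40.5% of all genes did. There were 2 calls without untreated replicates 4 and 5, and 6 with lane as a factor, where 27.3% of all genes were called. Between the irradiated groups 32 of 40 were lower at 7 days, with GINS2 at -1.30, MCM6, a subunit of the same helicase, at -1.15 and TP73 at -1.15, where 12.6% of all genes were lower. Against the knockdown 15 of 40 were lower at 7 days, with GINS2 at -0.93, CCNA2 at -0.84 and TP73 at -0.81, where 9.89% of all genes were lower.

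**Figure D4:**
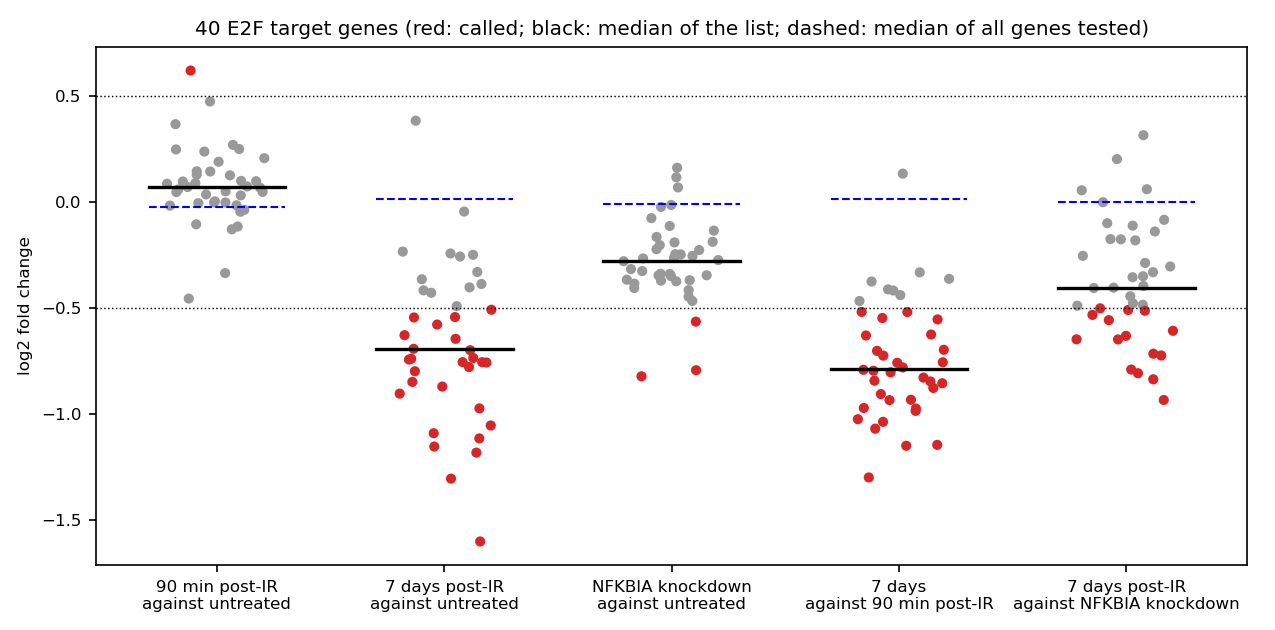
Log2 fold change (y axis) of 40 E2F target genes in 5 comparisons (x axis; points spread sideways for view); red marks called genes, the black line the median of the list and the dashed line that of all genes tested. The list median is -0.70 at 7 days against untreated cells and 0.07 at 90 min.

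Partners of the family were followed as 11 genes of the DP subunits and of the MuvB complexes, a list that also holds E2F6, a repressor E2F that acts without pocket proteins. No gene of this list was called at 90 min in edgeR, where 3.66% of all genes were called, and 5 of 11 were under an adjusted p of 0.05, where 21.3% of all genes were. E2F6, named here after its values were seen, had the highest value, from 28.0 ± 4.18 to 39.5 ± 0.805 CPM with no overlap (log2 fold change 0.49 ± 0.071, SE; edgeR adjusted p = 3.47e-05). At 7 days 3 of 11 were lower, or 27.3%, and 0 higher, where 14.4% of all genes were lower. FOXM1 and MYBL2 (B-Myb), which join MuvB to activate genes of G2 and mitosis, went from 402 ± 133 to 136 ± 3.38 CPM and from 291 ± 33.5 to 118 ± 4.25 CPM. LIN9, a MuvB core subunit, went from 29.9 ± 4.28 to 18.1 ± 0.748 CPM (n = 5 each). In the knockdown 2 of 11 were lower, namely MYBL2 at 159 ± 7.23 CPM and FOXM1 at 237 ± 7.75 CPM, where 7.53% of all genes were lower. FOXM1, LIN9 and MYBL2 were also lower at 7 days than at 90 min, and LIN9 and FOXM1 lower at 7 days than in the knockdown, where 12.6% and 9.89% of all genes were lower. No gene of this list was called higher in the 5 comparisons. Without untreated replicates 4 and 5 the calls of this list numbered 0 at 90 min, 3 at 7 days and 2 in the knockdown, where 2.9%, 29.9% and 11.7% of all genes were called. In the fit with lane as a factor 3 of the list were called at 90 min, where 25.5% of all genes were called, and 5 in the knockdown, where 27.3% of all genes were. LIN9 fell short in the comparison of 7 days with the knockdown in that fit, at -0.49. At 90 min 1 gene, E2F6, was called when any of 5 single libraries was left out, namely untreated replicates 1, 2 or 4 or 90 min replicates 2 or 3.

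Upstream of the pocket proteins, 14 of 15 cyclin, CDK and CDK inhibitor genes could be tested, and CDKN2A had too few counts. CDKN1A, which encodes p21, averaged 225 ± 17.2 CPM without treatment, 690 ± 24.3 CPM at 90 min, 816 ± 13.3 CPM at 7 days and 260 ± 13.4 CPM in the knockdown. It was higher in both irradiated groups (log2 fold change 1.61 ± 0.053 and 1.86 ± 0.053, SE). CDKN1B, which encodes p27, went the other way, from 55.0 ± 2.94 CPM to 32.4 ± 1.12 CPM at 90 min and 25.2 ± 0.78 CPM at 7 days, and both differences were called. CDKN2C, which encodes the CDK4 and CDK6 inhibitor p18, was lower than in untreated cells in all 3 other groups, at 70.0 ± 6.96 CPM against 49.0 ± 3.06, 17.0 ± 0.709 and 40.2 ± 2.17 CPM at 90 min, at 7 days and in the knockdown. At 90 min its log2 fold change of -0.51 ± 0.062 (SE) was close to the threshold. It was -0.42 without untreated replicates 4 and 5, and -0.48 to -0.50 when untreated replicate 4 or 5 or 90 min replicate 2 or 3 was left out, so that this call was lost.

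In all, 2 of these 14 genes were higher and 2 lower at 90 min, against 2.08% and 1.57% of all genes. At 90 min CCNE2 (cyclin E2) was higher beside CDKN1A, at 0.67 ± 0.074 (SE), and at 0.40 with lane as a factor was no longer called. At 7 days 4 were higher and 4 lower, against 16.7% and 14.4% of all genes. The cyclin D genes CCND1, from 348 ± 19.3 to 685 ± 26.9 CPM, and CCND2, from 224 ± 31.6 to 399 ± 28.1 CPM, were higher, as was CDKN2B (p15) at 0.53 ± 0.076, which was 0.48 without untreated replicate 4 or 7 days replicate 4 and then not called. With no filter CDKN2B was at 0.49 and also not called. CDKN1C (p57) at -0.75 ± 0.11 and CDKN2D (p19) at -1.03 ± 0.088 were lower. With lane as a factor CDKN1C was at -0.46 and CDKN2B at 0.25 at 7 days, neither then called. In that fit CCNE2 was called lower, at -0.57. In the knockdown 0 were higher and 2 lower, CCNE2 at -0.52 ± 0.076 beside CDKN2C, against 5.18% and 7.53% of all genes. This count was 1 without knockdown replicate 3, where 12.2% of all genes were called, 1 to 3 over all single libraries left out and 4 with lane as a factor, where 27.3% were. CCNE2 lost its call there without untreated replicate 5 or knockdown replicate 3 or 5, at -0.47 to -0.49. Without untreated replicates 4 and 5 the calls of this list numbered 3 at 90 min, 8 at 7 days and 3 in the knockdown, where 2.9%, 29.9% and 11.7% of all genes were called. From 90 min to 7 days 2 were higher, both cyclin D genes, and 5 lower, against 16.8% and 12.6% of all genes. Among the lower were CCNE2 at -1.04 ± 0.075 and CDK2 at -0.50 ± 0.049. The CDK2 call was lost without 7 days replicate 5 and with at least 10 counts required in every library, at -0.498 in both. CDK2 was at -0.48 with library size alone and -0.49 with lane as a factor, also not called. Against the knockdown 3 were higher and 4 lower at 7 days, where 15.8% and 9.89% of all genes were.

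The members also differed in which genes they followed over the 20 libraries. As a description over libraries that share groups, the genes outside the family with the closest log2 CPM were CDT1 and CDC45, both needed to start replication, for E2F1 (Pearson r = 0.987 and 0.986, n = 20 libraries). For RBL1 they were ATAD2 and ATAD5 (0.987 and 0.979), for E2F2 SESTD1 and NCAPG2 (0.983 and 0.982), and for E2F8 DNMT1, the maintenance DNA methyltransferase, and TCF4 (0.988 and 0.987). For E2F7 VGLL3 was among the closest (0.962), and E2F5 was closest to STAMBPL1 and BCDIN3D (0.960 and 0.951). E2F3 was closest to MAFG and PANX1 (0.947 and 0.941), E2F4 to GPS1 and HMG20B (0.937 and 0.917), RB1 to SENP7 and RDX (0.943 and 0.942), and RBL2 to SLC26A2 and ERMP1 (0.966 and 0.931). Within the family the highest values were those of E2F1 with E2F2 (0.957) and of E2F2 with RBL1 (0.953), and the lowest was that of E2F5 with E2F7 (-0.783).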

How the data were processed

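RNA of 20 U2-OS libraries was extracted with Trizol and, per the methods, sequenced as stranded mRNA libraries with single reads of 100 bases. Per the labels, the submitters' processing notes name bcl2fastq, Trimmomatic, STAR 2.4.2a and hg19. The counting tool, annotation and strand setting are not given in the sources used here. The authors deposited raw read counts per gene without normalization. In R 4.3.3, edgeR 4.0.16 kept 14992 of 20314 genes (filterByExpr, minimum count 10), scaled libraries by TMM and fitted 1 quasi-likelihood model to all libraries, with a term per group. CPM are TMM-scaled. The SE was computed from the F statistic. An exact two-sided permutation test of log2 CPM (prior count 2) was run for each gene, and its smallest p with 5 against 5 is 0.00794, reached wherever groups did not overlap. On simulated data the fit of 7 days against untreated libraries (14992 genes) called 192 of 200 changed genes (log2 change of 1) and 8 unchanged ones. The simulation gave every gene and group the same set spread and held no outlying library. Its rates therefore do not carry over to these data, where the untreated libraries varied more than the other groups for several members. Alternatives included DESeq2 1.42.0. Members, lists and tests were chosen with earlier results of these data known. All members were named in every comparison, partner and kinase genes where called in any, the 3 largest called target genes per comparison, and the 2 genes outside the family closest to each member, of which 1 is not reported here. UHRF1 was not analysed here.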

Additional observations from a re-analysis of the deposited data

Results flagged for a closer look

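RB1 was at 68.1 CPM in replicate 1 of the 7 days post-IR libraries, apart from the other libraries of its group, the next of which was at 64.0 CPM and the lowest at 62.8 CPM. The gap to the nearest library was 0.771 of the range of the group, above Dixon's critical value of 0.71 for 5 libraries. This was the only one of 40 sets of libraries (10 genes in 4 groups) to pass, and chance passes about 1 in 20.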

How the results depend on the processing

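With the threshold on the fold change removed, 3 members were called at 90 min, 7 at 7 days, 9 in the knockdown, 7 between the irradiated groups and 9 between 7 days and the knockdown, where 21.3%, 64.2%, 40.5%, 60.9% and 57.4% of all genes were. With a threshold of 1 on the log2 scale, 2 were called at 7 days, 0 in the knockdown and 0 between 7 days and the knockdown in edgeR, where 12.2%, 3.5% and 10.2% of all genes were. At 90 min 4 were called with lane as a factor or within lane 3. With each library left out in turn the counts were 0 to 0 at 90 min, 4 to 4 at 7 days, 1 to 3 in the knockdown, 4 to 4 between the irradiated groups and 3 to 4 between 7 days and the knockdown. The 1 in the knockdown came without untreated replicate 5. DESeq2, RLE factors, library size alone, both filters and a fit of only the groups compared kept all counts within 1.5 times. With the replicate block no count changed (4 at 7 days). Samples of the same number did not deviate together (30 pairs, r from -0.254 to 0.123, median -0.011), so that the numbers were not taken as pairs.

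The sign turned in 20 cases, each for a value that was not called. With lane as a factor the log2 fold changes were 0.44 (E2F5), -0.17 (E2F7) and -0.20 (RB1) at 90 min, -0.23 (E2F7) at 7 days, 0.089 (E2F1) and -0.054 (RB1) in the knockdown and 0.0027 (RBL2) between the irradiated groups. Within lane 3 they were 0.44 (E2F5), -0.18 (E2F7) and -0.20 (RB1) at 90 min. With library size alone they were 0.0090 (E2F4, knockdown), 0.0088 (E2F7) and 0.0041 (RBL2, both between the irradiated groups). Without untreated replicates 4 and 5 they were 0.0054 (E2F8) and -0.046 (RBL2) at 90 min and -0.078 (RBL2) at 7 days. With single libraries left out, E2F8 at 90 min ran from -0.17 to 0.079 and RB1 at 7 days from -0.19 to 0.0018, both turning without untreated replicate 5, and RBL2 at 7 days from -0.015 to 0.11, turning without untreated replicate 4 or 5. The cause was not tested. E2F5, with 116 to 461 counts per library, held the smallest count of any member. At 7 days and in the knockdown E2F8 had fewer counts than E2F5, at 188 to 243 and 306 to 372 per library.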
